A study of Pilatotrama ljubarskyi with 14 samples.

Results

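Of the 878 genes in the deposited table of the white-rot fungus Trametes ljubarskyi, 242 (27.6%) had their highest level on maltose, and the 91 of them that stood out there by a set margin are described here across 5 carbon sources. They were chosen on the 5 deposited log2 columns. The maltose value had to exceed the highest of the cellulose, wheat straw, aspen and pine values by at least 1 on the log2 scale, which is a 2-fold difference. The maltose value also had to be at least 4, and the lowest of the wheat straw, aspen and pine values had to lie less than 1 above cellulose. The choice thus used measured values, so that every difference between maltose and another substrate, and every difference between a plant material and cellulose, is given as a description with no test. The last condition left out a single gene, 824946, with levels of 10.75 on maltose, 5.87 on cellulose, 7.20 on wheat straw, 7.29 on aspen and 9.46 on pine.

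All cultures were of 1 strain, BRFM1659, grown for 3 days in shaken liquid medium with diammonium tartrate, yeast extract and thiamin. The maltose group, with 3 libraries, received 20 g/l maltose and no solid. The cellulose, wheat straw and pine groups (3, 3 and 2 libraries) received 2.5 g/l maltose and, at 15 g/l, either Avicel (microcrystalline cellulose) or ground and sifted straw or pine wood. The aspen group (3 libraries) received 15 g/l of milled aspen wood, and its maltose concentration is garbled in the labels. The labels thus name maltose in all of the groups, but its amount on aspen is unknown. In any difference from the maltose group, the concentration of the sugar and the presence of a solid cannot be told apart. Between aspen and the other solids, a difference in maltose and the kind of solid cannot be told apart. RNA came from mycelium together with remaining solid, and fewer cells of a kind and less RNA per cell cannot be told apart either. The labels do not say that the libraries of a group came from separate cultures, so the spread between them may be technical.

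White-rot fungi decay wood by secreting enzymes that attack cellulose, hemicelluloses and lignin. Maltose is a soluble sugar made of glucose units, which fungi release with α-glucosidases and then use directly through glycolysis. In many fungi readily used sugars repress the genes for plant cell wall degradation, a regulation known as carbon catabolite repression, and genes needed for growth on the sugar itself can be most abundant in its presence. The deposited table carries gene numbers of the strain's JGI MycoCosm annotation and does not pair them with names or functions, so the 91 genes are given by number and no function is assigned to any of them.

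Levels are means of log2(normalized reads + 1) over the libraries of a substrate, as deposited. They are not divided by gene length, so a level compares substrates for 1 gene and does not rank genes by transcript number. Reads of single libraries were recovered from the deposited means where whole reads gave a mean exactly and in only 1 way. This succeeded for 3953 of 4390 values (90.05%) in the table and, among the 91 members, for 75 on maltose, 87 on cellulose, 89 each on wheat straw and aspen and 91 on pine. On maltose 10 of the 16 missing members were above the searched levels, 4 fitted more than 1 set of reads and 2, genes 1038491 and 257843, fitted none. The spread of these 16 members over the maltose libraries is unknown. The libraries are called A, B and C within a substrate, and which labelled replicate each of them is remains unknown. Relative depth ran from 0.646 to 1.30, and total reads per library are unknown. Reads are printed as recovered and not scaled for depth, so they compare libraries only roughly, and the levels give the scaled comparison. Maltose library B stood apart, with Pearson's r across genes of 0.965 with library A and 0.964 with library C, while A and C had 0.992.

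The members spanned a wide range of levels, above the minimum of 4 that the rule set on maltose. Their maltose levels ran from 4.31 to 16.68 with a median of 10.78, against 8.87 over all 878 genes. On the other substrates their medians were 8.35 on cellulose, 8.04 on wheat straw, 7.58 on aspen and 7.89 on pine, where all genes had medians between 9.15 and 9.36. Summed over genes on the normalized read scale, the members made up 20.5% of the table on maltose. They made up 2.58% on cellulose, 2.10% on wheat straw, 2.21% on aspen and 2.02% on pine. The sum over the table differs between substrates, so these shares do not give the fold change of the members' own sum. They also rest on the values used by the rule and are not scaled for gene length. The 2 members with the highest maltose levels, genes 965600 and 752293, together held 6.91% of the table on maltose, and the remaining members held 13.6%. Gene 752293 had levels of 15.69 on maltose, 13.39 on cellulose, 13.37 on wheat straw, 12.43 on aspen and 12.90 on pine. Its reads were recovered only on aspen (5607, 6207 and 6922) and pine (7778 and 4594).

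**Figure D1:**
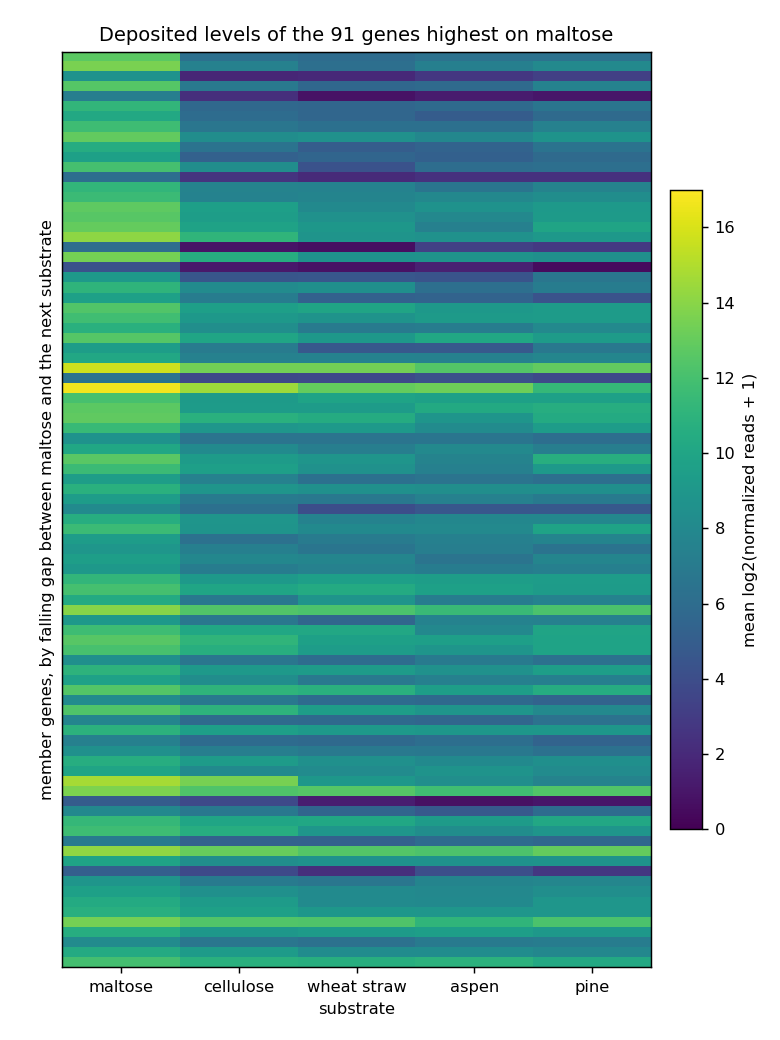
Deposited mean log2(normalized reads + 1) of the 91 members (rows, ordered by the gap between maltose and the next highest substrate, largest at the top) on the 5 substrates (columns). Maltose is the brightest column in every row because the rule required it, while the other 4 columns differ from row to row, with a range from 0.34 to 5.87 within a gene.

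The gap between maltose and the next highest substrate had a median of 1.85 and ran from 1.00 to 6.35. It was at least 2 in 41 members, at least 3 in 19, at least 4 in 10 and at least 5 in 3. The largest gap was that of gene 351956, with a level of 12.74 on maltose and levels of 6.30, 6.04, 6.38 and 6.39 on cellulose, wheat straw, aspen and pine. Its reads were 129, 85 and 60 in the cellulose libraries, 72, 83 and 40 on wheat straw, 111, 88 and 83 on aspen and 78 and 54 on pine, and were not recovered on maltose. The 4 solid substrates thus lay close together for this gene, at least 6.35 under maltose.

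Gene 967821 had the next largest gap, 5.56, from 13.56 on maltose to 8.0 on pine, with 7.50 on cellulose, 6.20 on wheat straw and 7.33 on aspen. Its libraries were less uniform than those of gene 351956, with 369, 208 and 105 reads on cellulose and 111, 367 and 146 on aspen. Its maltose reads were not recovered. Gene 968537, with a gap of 5.43, had 341, 342 and 562 reads in maltose libraries A, B and C. It had 5, 9 and 0 on cellulose, 4, 1 and 4 on wheat straw, 10, 9 and 3 on aspen and 14 and 3 on pine. Every maltose library held more reads of it than any other library by a wide margin.

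At the other end, genes 967084 and 1071415 lay just inside the gap threshold, with gaps of 1.002 and 1.028. Genes 378734 and 964166 lay just outside it, with 0.999 and 0.986. Gene 967084 had 3910, 3647 and 3897 reads on maltose and 2103, 2238 and 2153 on aspen, its next highest substrate. Gene 378734 had 276, 196 and 220 reads on maltose and 117, 150 and 118 on cellulose. The threshold therefore separates genes that hardly differ in their gap.

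Of the 75 members with reads recovered in all 14 libraries, 73 had every maltose library above every other library. The same held for 19.2% of the 681 genes of the table recovered in all libraries, and since the choice of members used the same difference, nothing is read from this count. The exceptions were genes 1058388 and 990852. Gene 1058388 had 640, 6983 and 565 reads on maltose and 957, 707 and 583 on cellulose. Only maltose library B was above the cellulose libraries, and without it the deposited gap of 1.06 became -0.12, so that this gene was then not highest on maltose.

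Gene 1058388 had the largest SD over the maltose libraries among the members, 2.05 on the log2 scale. Gene 990204 followed with 1.21, from 1125, 247 and 1018 reads, where library B was the low one. Library B differed by at least 1 from the mean of the other maltose libraries in 13 of the 75 members with maltose reads (17.3%), above it in 9 and below it in 4. Over all 788 genes with maltose reads it did so in 11.3%, above in 49 and below in 40. The rule chose genes with high maltose means, which favours genes raised in a maltose library, so nothing is read from this difference. The median SD over the maltose libraries was 0.266 in these members and 0.244 over the 743 genes of the table with maltose reads and a level of at least 4 there.

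Membership shifted when the maltose mean was computed without a library. Without library B the rule chose 75 genes among those with maltose reads, the same number as with it, but 68 of them were shared. The 7 members that dropped out were 1058388, 423789, 839006, 936911, 954325, 1099725 and 970881. Gene 936911, for example, had 4071, 10772 and 3855 maltose reads, and its gap went from 1.38 to 0.89. Without library A 74 of the 75 members stayed, and without library C 72 stayed. All members that dropped out in any of these cases had gaps of at most 1.38 over all libraries.

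**Figure D2:**
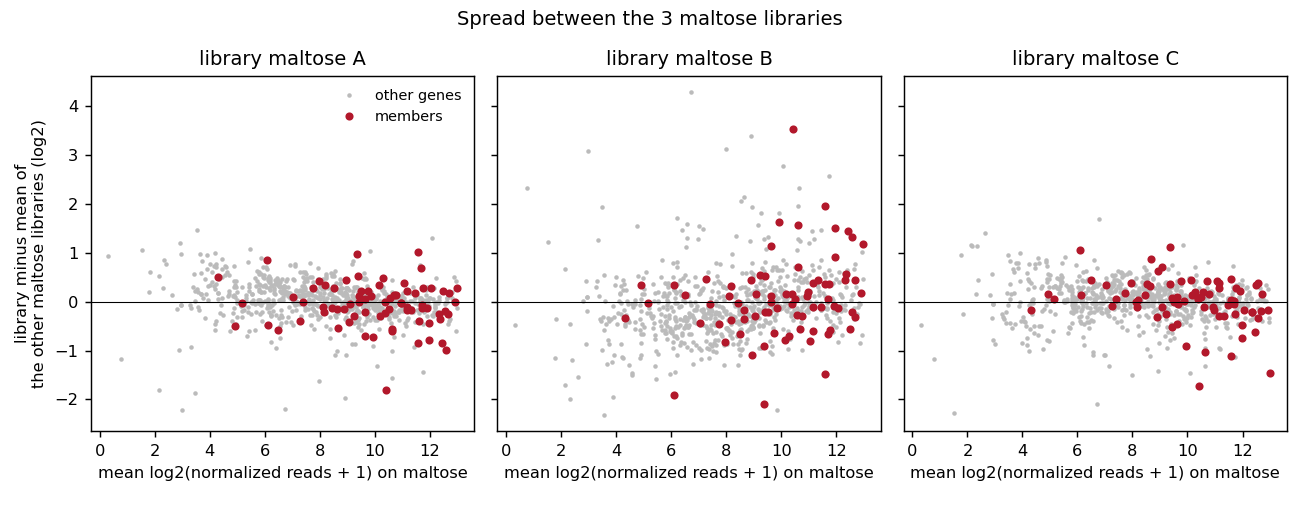
Difference of each maltose library from the mean of the other maltose libraries (y axis, log2) against the mean maltose level (x axis), for the 75 members with maltose reads (red) and the other genes (grey). The points spread most in library B, where gene 1058388 is the highest red point.

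A small group of members had very few reads outside the maltose group. In 8 members every solid substrate had a level under 5. They were genes 968537, 969810, 1007871, 546434, 831265, 1126271, 990852 and 1048651. At such levels the 1 added inside the logarithm makes differences smaller, so ratios of summed reads scaled for depth are given. Their exact 95% intervals cover counting error only and leave out the spread between libraries. The rule had used the same difference from maltose, so the ratios and intervals are a description and no test.

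Gene 969810 had 138, 189 and 136 reads on maltose, 9, 2 and 4 on cellulose, 0, 5 and 0 on wheat straw, 1, 2 and 2 on aspen and 3 and 0 on pine. Its summed reads were 34.6-fold lower on cellulose (interval 20.7 to 62.3) and 105-fold lower on aspen (44.9 to 326). On wheat straw they were 90-fold lower (38.3 to 279). Gene 968537 was 99.6-fold lower on cellulose (59.1 to 183), 134-fold lower on wheat straw (70.6 to 295) and 39.1-fold lower on pine (24.3 to 67.3). These intervals overlap for gene 969810, so no order of the 3 substrates is read from them.

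Gene 546434 was low to a similar degree on every solid. It had 59, 79 and 67 maltose reads, and its summed reads were 14.3-fold lower on cellulose (8.63 to 25.6), 16.6-fold lower on wheat straw (9.30 to 32.7), 14.6-fold lower on aspen (8.77 to 26.0) and 15.6-fold lower on pine (7.45 to 39.4). Gene 1048651 had the lowest maltose level among the members, with 26, 16 and 16 reads on maltose and 1 and 0 on pine. Its pine ratio of 0.0323 has an interval from 0.000804 to 0.187. Gene 990852 had 25, 34 and 29 reads on maltose and 31, 7 and 12 on cellulose, and overlapped there, but had at most 2 reads in any library of wheat straw, aspen or pine.

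On the solid substrates the members did not all behave alike. The range over the 4 solid substrates had a median of 1.26, against 1.13 over all genes, and was under 1 in 38 members (41.8%, against 43.2% of all genes). It was at least 2 in 19 members (20.9%, against 21.3%). The flattest members were genes 965154 and 1037062, with ranges of 0.336 and 0.339. Gene 1037062 had 1092, 1229 and 1138 reads on maltose, 231, 215 and 159 on cellulose, 187, 190 and 149 on wheat straw, 231, 182 and 203 on aspen and 200 and 157 on pine. Scaled for depth, its levels were 7.49 on cellulose, 7.52 on wheat straw, 7.50 on aspen and 7.83 on pine. It was called in none of the comparisons between plant materials, and its maltose libraries were uniform (SD 0.17).

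The median profile of the members, as the difference from each gene's own mean over the 5 substrates, was 2.06 on maltose, -0.20 on cellulose, -0.73 on wheat straw, -0.90 on aspen and -0.46 on pine. Pearson's r of a member with this profile over the 5 values had a median of 0.93 and a minimum of 0.75, and 67 members had at least 0.9. The rule itself favours such values. Genes 941131, 970956 and 363776 were closest to it, with 0.995, 0.992 and 0.991. Gene 970956 had 2013, 1524 and 1731 reads on maltose, 573, 508 and 479 on cellulose, 378, 369 and 298 on wheat straw, 430, 389 and 329 on aspen and 295 and 250 on pine. Scaled for depth, its levels were 10.78 on maltose, 8.86 on cellulose, 8.50 on wheat straw, 8.40 on aspen and 8.44 on pine.

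**Figure D3:**
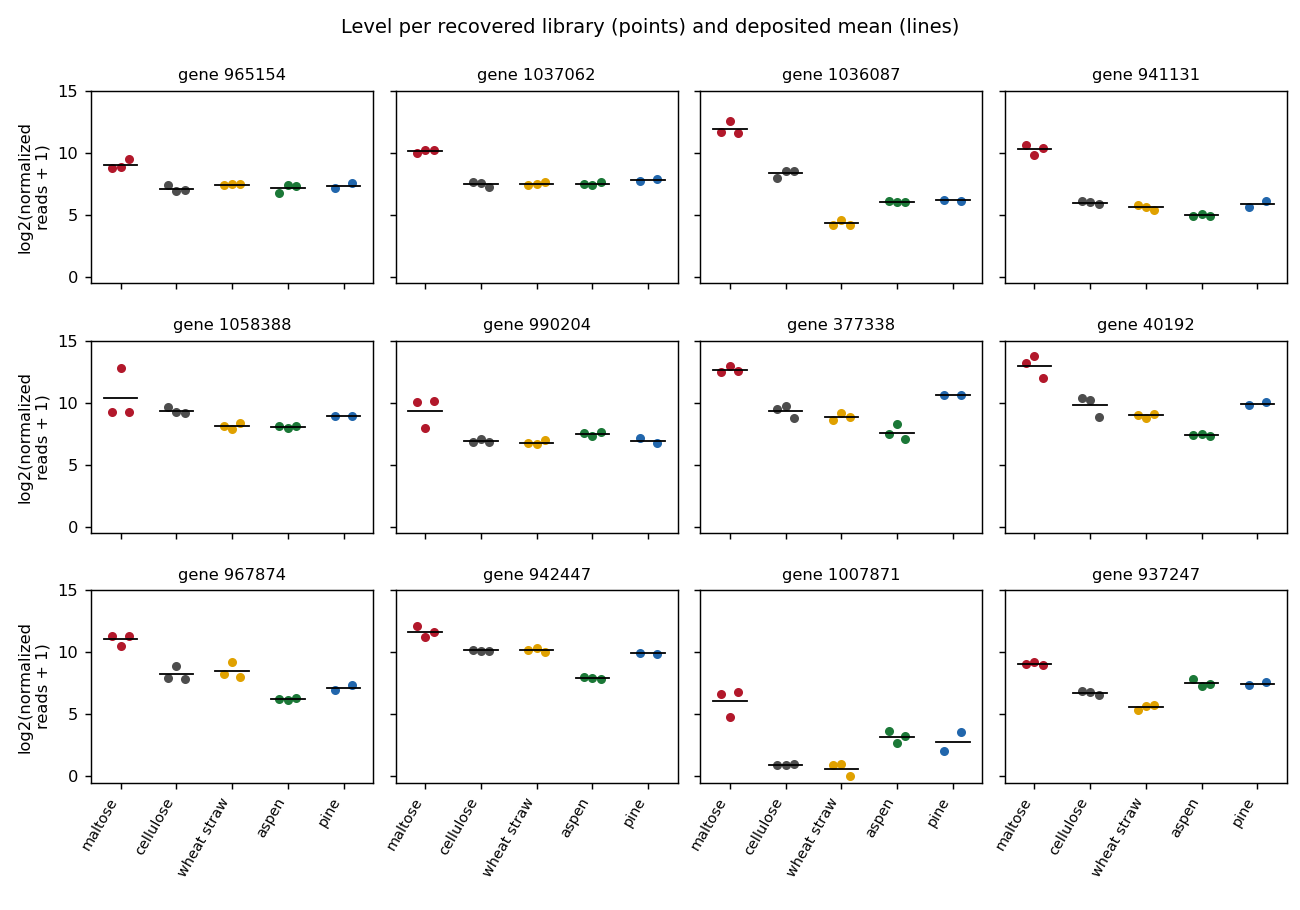
Level of 12 named members in each recovered library (points, coloured by substrate, log2 of normalized reads plus 1) with the deposited mean of the substrate (lines). Genes 965154 and 1037062 are flat over the solid substrates, gene 1036087 drops furthest on wheat straw, genes 377338, 40192 and 942447 are lowest on aspen, and in gene 1058388 a single maltose library is high.

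Cellulose was the most frequent runner-up to maltose. It was the highest of the solid substrates in 43 members (47.3%), pine in 25, aspen in 14 and wheat straw in 9. Over all genes cellulose was the highest solid in 30.9%. In 13 members (14.3%) all of wheat straw, aspen and pine lay at least 1 below cellulose, as in 8.88% of all genes. In 44 members (48.4%) all of them lay within 1 of cellulose, as in 52.1% of all genes. The condition on plant materials restricts how far they can lie above cellulose, and these counts are a description.

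The largest differences between cellulose and the plant materials were those of gene 964653. Its level was 14.69 on maltose and still 13.50 on cellulose, but 8.99 on wheat straw, 8.42 on aspen and 7.63 on pine. It had 601, 360 and 530 reads on wheat straw, 232, 891 and 281 on aspen and 160 and 149 on pine; its reads were not recovered on maltose and cellulose. On Avicel it was thus within 1.19 of maltose, while wheat straw, aspen and pine differed from Avicel by -4.51, -5.07 and -5.87. Gene 1036087 had 3543, 6088 and 2963 reads on maltose, 291, 435 and 376 on cellulose, 89, 70 and 68 on aspen, 71 and 45 on pine and 19, 24 and 13 on wheat straw. None of its groups on maltose, cellulose and wheat straw overlapped.

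A few members were lowest on cellulose instead. Cellulose was the lowest of the solid substrates in 12 members (13.2%), against 25.6% of all genes, while aspen was the lowest in 38 (41.8%, against 38.6%). Gene 971701 had 104, 179 and 107 reads on cellulose and 507, 461 and 346 on wheat straw, a difference of 1.99. Gene 950450 had a level of 6.35 on cellulose, 7.05 on wheat straw, 7.42 on aspen and 7.68 on pine. Gene 997141 had 40, 20 and 20 reads on cellulose and 92 and 66 on pine, a difference of 2.09, while wheat straw (21, 20 and 26) and aspen (19, 23 and 28) stayed near the cellulose reads.

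The rule did not contrast the plant materials with one another, and these 3 comparisons were tested. It did cap each plant material at 1 or more under maltose, and the lowest of them at less than 1 above cellulose. The tested genes as a whole are under no such caps, so the shares of members and of all genes are not fully comparable. In those with aspen the maltose concentration may differ as well, as the aspen label is garbled. Limma was fitted across the 867 genes that reached level 4 in 2 or more libraries, counted over all substrates. All 91 members passed, but 6 of them (genes 1007871, 1048651, 546434, 968537, 969810 and 990852) did not reach that level in 2 or more libraries of wheat straw, aspen and pine. They were thus tested between plant materials only because of maltose or cellulose levels that the rule had used, and their calls support nothing. A gene was called where the Benjamini-Hochberg (BH) adjusted p over those 867 genes was under 0.05 and the means differed by 1 or more (log2). The SE of a gene pools its spread over all substrates with recovered reads, maltose and cellulose included. Between pine and wheat straw gene 1058388 had an SE of 0.75. Its SDs were 2.05 on maltose, 0.25 on wheat straw and 0.01 on pine. At level 4 or more, members had a larger median SD than all genes on every substrate, such as 0.191 against 0.126 on wheat straw. A larger SE makes calls and low p fewer, and its part in the members' shares was not tested. Together the comparisons called 32 members (35.2%) in at least 1 of them, and 59 in none. Of all tested genes 40.5% were called in at least 1. With the filter counted over the plant material libraries alone, an alternative chosen after seeing the data, 85 members were tested, and gene 1007871 was the one called member to drop out. Gene 1126271 stayed, but among the plant materials only its aspen level reached 4, so its calls as higher on aspen support nothing either.

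Between aspen and pine, 19 of the 91 members were called (20.9%), 16 lower and 3 higher on aspen. Over all tested genes 23.9% were called, 16.6% lower and 7.27% higher. The members' shares were near or under the background, and the part that their larger spread between libraries has in this was not tested. The median difference of the members was -0.25 and that of all genes -0.23, with 67% of the members and 62.2% of all genes below 0. Over genes recovered in every library, the median shift of the aspen libraries minus that of the pine libraries was -0.22, close to both medians. With each library shifted by its median, 13 members were lower and 4 higher on aspen, 17 in all. An unadjusted p under 0.05 was reached by 45 members (49.5%) and by 57.3% of all tested genes.

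Gene 377338 differed most between aspen and pine. Its reads numbered 226, 328 and 135 on aspen but 1502 and 1041 on pine, with 424, 592 and 348 on wheat straw and 839, 975 and 462 on cellulose. Aspen was the lowest group and pine the highest of the solids, and neither overlapped with another group. The log2 difference was -3.06 with an SE of 0.33 (BH-adjusted p = 9.6e-06, limma). On maltose gene 377338 had 6262, 7945 and 5471 reads.

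Gene 40192 likewise had fewer reads on aspen (219, 193 and 168) than on pine (845 and 679), with a difference of -2.50, SE 0.45 (BH-adjusted p = 0.000562, limma). Its maltose reads of 9977, 13898 and 3788 varied more than its aspen reads. Gene 997141, whose pine reads lay above those of the other solids, was lower on aspen by a difference of -2.23, SE 0.34 (BH-adjusted p = 0.000157, limma). In all 16 lower members the differences lay between -3.06 and -1.07.

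The 3 members called higher on aspen than on pine were genes 965600, 1126271 and 945109. Gene 965600 had the highest maltose level in the table, 16.68 (not scaled for gene length), and levels of 14.49 on cellulose, 12.97 on wheat straw, 13.28 on aspen and 11.29 on pine. Its difference was 1.99, SE 0.17 (BH-adjusted p = 0.000459, limma), but reads were recovered only on pine (2266 and 1697). The SE thus rests on 1 residual degree of freedom and the spread of other genes, and leaves out the spread of gene 965600 on aspen. Gene 1126271, with few reads throughout, had 22, 14 and 18 on aspen but 5 and 4 on pine, a difference of 1.31. Its level was 4.06 on aspen, 2.75 on pine and 2.28 on wheat straw. Among the plant materials it thus passed the filter through aspen alone, where it is high. Its values are given as a description. Gene 1126271 lost its call in 4 of the fits that left out 1 library, without aspen library A or C or pine library A or B (differences of 1.21 to 1.41). It also lost its call under quantile normalization (difference of 0.92). The count of higher members fell to 1 without aspen library B or pine library A and to 0 without aspen library C or pine library B. Gene 965600 is tested in none of the fits that leave out a library, and part of these drops is its absence. Leaving out pine library B also reduced the members called in either direction to 11. With 1 pine library left out, pine is a single library that is assumed to vary like the other groups, here and in the comparison with wheat straw.

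**Figure D4:**
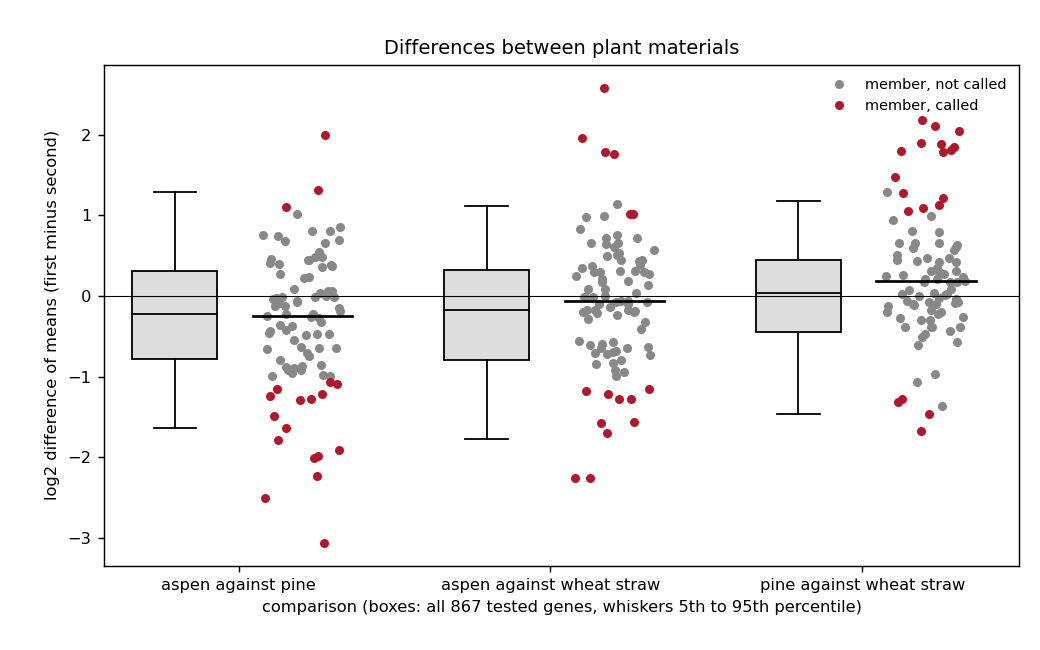
Log2 difference of deposited means (y axis, first substrate minus second) for the 91 members (points, red where called, black line at their median) beside all 867 tested genes (box with median and quartiles, whiskers from the 5th to the 95th percentile) in 3 comparisons. The members' medians are -0.25, -0.06 and 0.18, and those of all genes are -0.23, -0.18 and 0.04, in the same order of comparisons.

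Between aspen and wheat straw, 16 members were called (17.6%), 10 lower and 6 higher on aspen. Of all tested genes 23.5% were called, 17.3% lower and 6.23% higher. The median difference was -0.06 in the members and -0.18 over all genes. Over genes recovered in every library, the median shift of the aspen libraries minus that of the wheat straw libraries was -0.10. With each library shifted by its median, 10 members were lower and 9 higher on aspen, 19 in all. An unadjusted p under 0.05 was reached by 39 members (42.9%) and by 58.7% of all tested genes. The 6 higher members include genes 1007871 and 1126271, whose calls support nothing. With the filter over plant material libraries 5 were called, gene 1126271 still among them. The aspen libraries are the same as in the comparison with pine, so the comparisons are not independent.

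Gene 942447 had 327, 263 and 242 reads on aspen, 1318, 1356 and 782 on wheat straw, 1420, 1262 and 1164 on cellulose and 941 and 615 on pine. Its aspen libraries lay below those of every other solid substrate. Its difference from wheat straw was -2.26, SE 0.18 (BH-adjusted p = 8.6e-07, limma), and its difference from pine was -1.99, SE 0.20 (BH-adjusted p = 6.2e-06, limma).

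Gene 967874 had 95, 75 and 81 reads on aspen and 328, 619 and 197 on wheat straw, a difference of -2.26, SE 0.33 (BH-adjusted p = 9.62e-05, limma). On pine, with 116 and 108 reads, it was also lower than on wheat straw by a difference of -1.32, SE 0.37 (BH-adjusted p = 0.0139, limma). In the other direction gene 937247 had 306, 170 and 180 reads on aspen and 43, 53 and 40 on wheat straw, a difference of 1.96, SE 0.18 (BH-adjusted p = 2.2e-06, limma). In gene 1007871, 15, 6 and 9 reads on aspen stood against 1, 1 and 0 on wheat straw and 3 and 7 on pine. These few reads are given as a description. On maltose its reads were 108, 27 and 101, with library B the low one.

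Between pine and wheat straw, 19 members were called (20.9%), 15 higher and 4 lower on pine. Of all tested genes 17.2% were called, 7.38% higher and 9.80% lower. The share of members called higher, 16.5%, was above the background share, and this difference of shares was not tested. The median difference was 0.18 in the members and 0.04 over all genes, with 39.6% of the members and 47.4% of all genes below 0. An unadjusted p under 0.05 was reached by 32 members (35.2%) and by 47.4% of all tested genes. With the filter over plant material libraries, which leaves out gene 1007871, 14 members (16.5% of those tested) were higher on pine, against 7.40% of all genes. Over genes recovered in every library, the pine libraries had a median shift 0.12 above that of the wheat straw libraries. With each library shifted by its median, 13 members were higher and 6 lower on pine, 19 in all. The share of all tested genes under this shift is not given here, so these counts do not show an excess.

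Gene 1113741 had 107 and 69 reads on pine and 28, 14 and 34 on wheat straw, a difference of 2.10, SE 0.65 (BH-adjusted p = 0.0226, limma). On aspen, with 11, 54 and 43 reads, its libraries varied most (SD 1.34). Gene 1113741 lost its call without wheat straw library A or B or pine library A or B (differences of 1.67 to 2.13, BH-adjusted p = 0.0545 to 0.113, limma). Genes 997141 and 937247 were also higher on pine, with differences of 2.05, SE 0.34, and 1.90, SE 0.20 (BH-adjusted p = 0.00058 and 2.25e-05, limma).

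The 4 members lower on pine than on wheat straw were genes 965600, 153003, 967874 and 971701. Gene 965600 had a difference of -1.68, SE 0.17 (BH-adjusted p = 0.00143, limma), and its SE likewise leaves out its spread on wheat straw. Gene 153003 had 266 and 157 reads on pine and 850, 567 and 675 on wheat straw, a difference of -1.46, SE 0.42 (BH-adjusted p = 0.0153, limma). Its libraries varied on cellulose (4111, 1465 and 1902 reads) and on aspen (370, 496 and 835). Gene 153003 lost its call without wheat straw library C or pine library A or B (differences of -1.56 to -1.31, BH-adjusted p = 0.054 to 0.108, limma). The count of lower members fell to 2 without wheat straw library B or C and to 1 without pine library A, with gene 965600 again untested in these fits.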

How the data were processed

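PolyA RNA from mycelium was sequenced in 14 libraries. The authors deposited 1 column of normalized read counts on a log2 scale for each substrate, per the file headers. Per the submitters' processing notes, TopHat2, HTSeq and DESeq 1.5 belong to the processing. How the values were scaled and why these 878 genes were kept was not stated in these sources.

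Each column was found to be a mean of log2(count × factor + 1) with 1 factor per library and whole counts. Factors came from the lowest values, and 544 of 544 values under level 5.5 were then solved. Counts were searched within a relative tolerance of 5e-14 (1.8e-13 from level 10), with libraries within 6 log2 units of the mean up to level 8 and throughout in pine, 4 up to level 10, 3 up to 11, 2 up to 12 and 1 up to 13. Only single solutions were used. Of 300 shifted decoys up to level 11, 0 gave a single solution, and of 200 between levels 11 and 13, 8 did. Simulated counts were recovered for 3430 of 3436 values (1 gene on 1 substrate each), with 0 wrong. The simulation covered levels up to 11 in the groups of 3 libraries and all levels in pine. Above level 11 the groups of 3 libraries were checked by the decoys alone.

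Differences are those of the deposited means, and recovered libraries give the spread. Limma 3.58.1 (R 4.3.3) fitted 1 mean per substrate over 14 libraries, with a mean-variance trend. A gene without reads on a substrate takes its spread from the others (9 residual degrees of freedom in 670 genes, 1 to 7 in the rest). On simulated data with log2 changes of 2, 100% were called in each of the 3 comparisons. With changes of 1, which lie at the threshold, 49% to 54% were called, and at most 1 unchanged gene was called. The simulated noise was normal, with an SD set by the mean level alone. Real genes of like level differ in their spread, so these rates need not hold for them. Python 3.11.15 with NumPy 2.4.6 was used for recovery.

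Members, lists and alternatives were chosen with earlier results of these data known. Named genes are extremes of each measure, 2 or 3 at each end, and other genes named are in counts of 8 or fewer, chosen after their values were seen. Tests of gene groups were not run, as no names were at hand.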

Additional observations from a re-analysis of the deposited data

How the results depend on the processing

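The number of members follows from the thresholds, with 142 genes at a gap of at least 0.5 and 41 at a gap of at least 2. It was 91 with no minimum maltose level, 88 with a minimum of 6, 92 without the condition on plant materials and 95 after shifting each column by the median shift of its libraries. Leaving out 1 maltose library gave 75 to 78 genes among those with maltose reads, where 75 is the count with all libraries. Under a median shift of each library, quantile normalization, no filter on low values, no mean-variance trend or only genes recovered in every library, every count of called members stayed within 1.5 times its value. Fits without 1 library gave 11 to 20 members between aspen and pine, 0 to 2 of them higher and 11 to 19 lower. Between aspen and wheat straw they gave 14 to 18 members, and between pine and wheat straw 13 to 19, of which 1 to 4 were lower and 10 to 15 higher. Such fits drop genes whose reads were not recovered on that substrate, and gene 965600 is tested in none of them. Shares over all genes are not given for these fits or the other normalizations, so their counts are not set against a background. Where a pine library is left out, the other is assumed to vary like the other groups. With the filter counted over wheat straw, aspen and pine libraries alone, chosen after seeing the data, 19, 15 and 18 members were called. Between aspen and pine these were 22.4% of the tested members, against 24.6% of all tested genes. Between aspen and wheat straw the shares were 17.6% and 23.7%, and between pine and wheat straw 21.2% and 17.3%. Of 206 refitted differences of named members, 193 kept their call and 13 kept their direction only. Many of these refits left out a library of a substrate outside the comparison, which cannot change the difference itself. Apart from a loss under quantile normalization, every lost call came from a fit without a library of a compared substrate. The refits include gene 1007871, whose calls support nothing, and lack gene 965600 wherever a library was left out. The counts are therefore no measure of how robust the calls are. No paired analysis was possible because the recovered libraries carry no replicate numbers. Depth limits the members with few reads, where a single read moves the level.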
